A study of Caenorhabditis elegans with 4 samples.

Results

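The genes described here are 49 Caenorhabditis elegans genes for germ granule proteins, germline translational regulators and Y-box proteins, out of 19985 protein-coding genes. They are the setting in which CEY-2, the protein that was precipitated, is known to act. They were chosen by name from that known role, but with earlier results of these data known. For each, the peak with the highest signal was taken whose summit lay within 1000 bp of the gene start, on either side. A peak at a start is DNA recovered with the tagged protein, and says nothing by itself of the level of the gene's RNA.

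CEY-2 was fused at its C-terminus to GFP and FLAG in strain OP358, which carries the integrated transgene wgIs358 and the allele unc-119(tm4063) III. Chromatin of whole hermaphrodites of larval stage L4 was sonicated and recovered with an antibody against GFP. All 4 libraries had this genotype and stage and formed 1 group of 3 biological replicates, the 2 technical libraries of replicate 2 having been merged by the authors. All came from 1 transgenic line, and whole worms mix the germline with every other tissue. There was therefore no second condition to compare, and the values below are positions in the authors' peak lists, set beside those of all protein-coding genes.

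Y-box proteins carry a cold shock domain and bind messenger RNA, mostly in the cytoplasm, where they package it and hold back or stabilise it. In the worm germline they meet the proteins of P granules, which are RNA-rich condensates at the nuclear surface, and a set of repressors that keep maternal messages silent until they are needed. PUF, Nanos, STAR, KH and CCCH zinc finger proteins choose those messages by sites in their 3′ ends, while poly(A) polymerases, helicases and eIF4E-binding proteins set whether a chosen message is translated.

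The 5 lists used were the list of peaks past the authors' irreproducible discovery rate threshold (IDR list, 611 peaks), the pooled list (25484) and those of replicates 1, 2 and 3 (30000, 30000 and 21628). The pooled and replicate lists hold peaks and background together, per the labels' file types, so that a low place in them is weak evidence of recovery. Signal is the peak caller's own value and was compared only within 1 list, and a rank of 1 is the highest signal of its list. The IDR list holds the 611 highest peaks of the pooled list and ended at a signal of 35.9, and the median signal of the pooled list was 10.8. Mitochondrial peaks, 25 in the IDR list and 26 in the pooled list, had signals up to 2300, against at most 163 for nuclear peaks. They and the mitochondrial genes are kept in the ranks and shares below, except where nuclear is stated. Among nuclear coding genes alone 1.45% had an IDR peak at the start. No read counts were given, and the depth is unknown.

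The strongest peaks at these starts lay in front of puf-9, mex-1, cgh-1, ifet-1 and cey-1. The 201 bases centred on each of their pooled summits are shown because the order of the results below turns on them, each written 5′ to 3′ on the strand of its gene in build ce11. Capitals mark the words GAGAGA and CACGTG or their reverse complements. The windows are chrX:5841152-5841352 on the plus strand, chrII:11967603-11967803 on the plus strand, chrIII:7498421-7498621 on the minus strand, chrIII:4475512-4475712 on the minus strand and chrII:11042061-11042261 on the minus strand.
puf-9: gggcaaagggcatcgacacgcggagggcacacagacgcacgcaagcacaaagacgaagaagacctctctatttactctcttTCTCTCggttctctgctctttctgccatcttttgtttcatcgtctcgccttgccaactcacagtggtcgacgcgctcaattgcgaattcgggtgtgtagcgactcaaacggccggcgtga
mex-1: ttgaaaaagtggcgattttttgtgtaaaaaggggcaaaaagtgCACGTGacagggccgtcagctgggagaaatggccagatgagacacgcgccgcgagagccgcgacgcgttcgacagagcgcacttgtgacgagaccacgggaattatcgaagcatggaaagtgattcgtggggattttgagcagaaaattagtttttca
cgh-1: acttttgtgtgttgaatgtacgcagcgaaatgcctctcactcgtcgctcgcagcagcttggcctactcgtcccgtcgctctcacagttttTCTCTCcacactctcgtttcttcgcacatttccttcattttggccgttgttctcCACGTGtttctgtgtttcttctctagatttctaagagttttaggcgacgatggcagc
ifet-1: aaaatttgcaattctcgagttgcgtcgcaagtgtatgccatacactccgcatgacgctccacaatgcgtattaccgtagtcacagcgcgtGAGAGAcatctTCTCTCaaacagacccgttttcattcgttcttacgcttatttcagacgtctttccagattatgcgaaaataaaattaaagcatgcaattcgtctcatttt
cey-1: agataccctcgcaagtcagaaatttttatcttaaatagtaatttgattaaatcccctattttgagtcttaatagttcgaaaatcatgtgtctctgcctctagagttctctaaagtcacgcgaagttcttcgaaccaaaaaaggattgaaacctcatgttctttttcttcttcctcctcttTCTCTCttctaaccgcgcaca

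Few members had a peak in the IDR list, and in most lists they had one about as often as other genes or less often. In the IDR list 2 of 49 had a peak (4.08%), against 1.51% of coding genes, a difference that rests on 1 or 2 genes. In the pooled list 16 had one (32.7%), against 45.0% of coding genes. The replicate lists gave 20 members in replicate 1 (40.8% against 49.9%), 24 in replicate 2 (49% against 49.2%) and 21 in replicate 3 (42.9% against 38.2%). The order of members and coding genes thus differed between replicates, but with 49 members each of these gaps amounts to a few genes at most. A peak in all 3 replicates was present at 11 members (22.4%), against 16.2% of coding genes. When replicate 3 was left out and a peak was required in the others, the shares were 28.6% of members and 29.1% of coding genes. Without replicate 1 they were 30.6% and 23.6%, and without replicate 2 they were 26.5% and 23.3%. These differences are also of few genes, and the part of each replicate was not tested. In 3 of the 11 members with a peak in all 3 replicates the best summits lay within 200 bp of each other. These were puf-9, mex-1 and ifet-1 (6.12% of all members, against 3.49% of coding genes). No test was made of these shares, since the genes were chosen with earlier results of these data known.

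**Figure D1:**
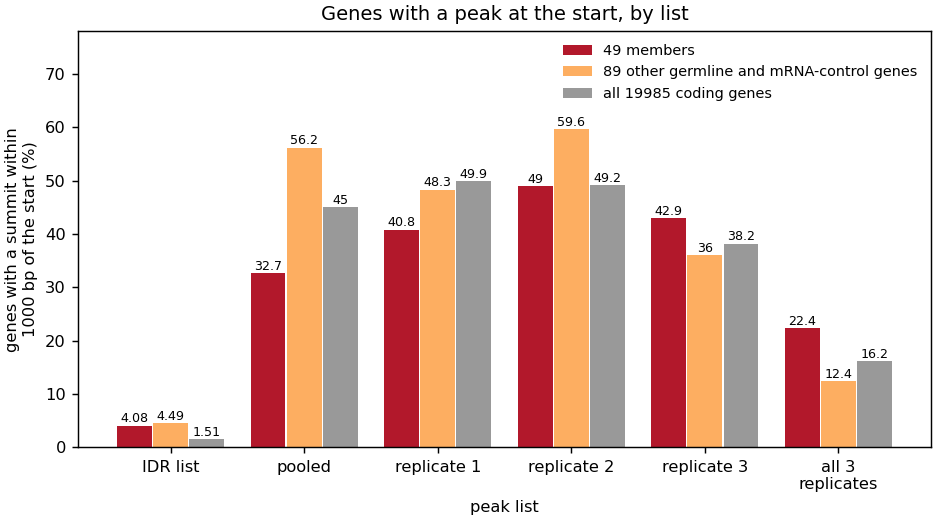
Bars give the percent of genes (vertical axis) with a summit within 1000 bp of the start in each list (horizontal axis), for the 49 members, 89 other genes of germline and mRNA control, and all 19985 coding genes. Members stand below all coding genes in the pooled list (32.7% and 45%) and above them in all 3 replicates together (22.4% and 16.2%).

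Several members had pooled peaks of high rank. Among the 2000 highest pooled peaks, 6 members were reached (12.2%), against 5.32% of coding genes: puf-9, mex-1, cgh-1, ifet-1, cey-1 and atx-2. With the 5000 highest it was 10 (20.4%) against 12.3%, adding lin-28, oma-1, gls-1 and spn-4. The best pooled peaks of the 16 had a median rank of 4164, against 10302 for the 8986 coding genes with one. Of the 16, 12 were at or above the list's median signal (75%, against 59% of those coding genes). The remaining 4 were car-1, cey-2, gld-2 and gld-3.

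**Figure D2:**
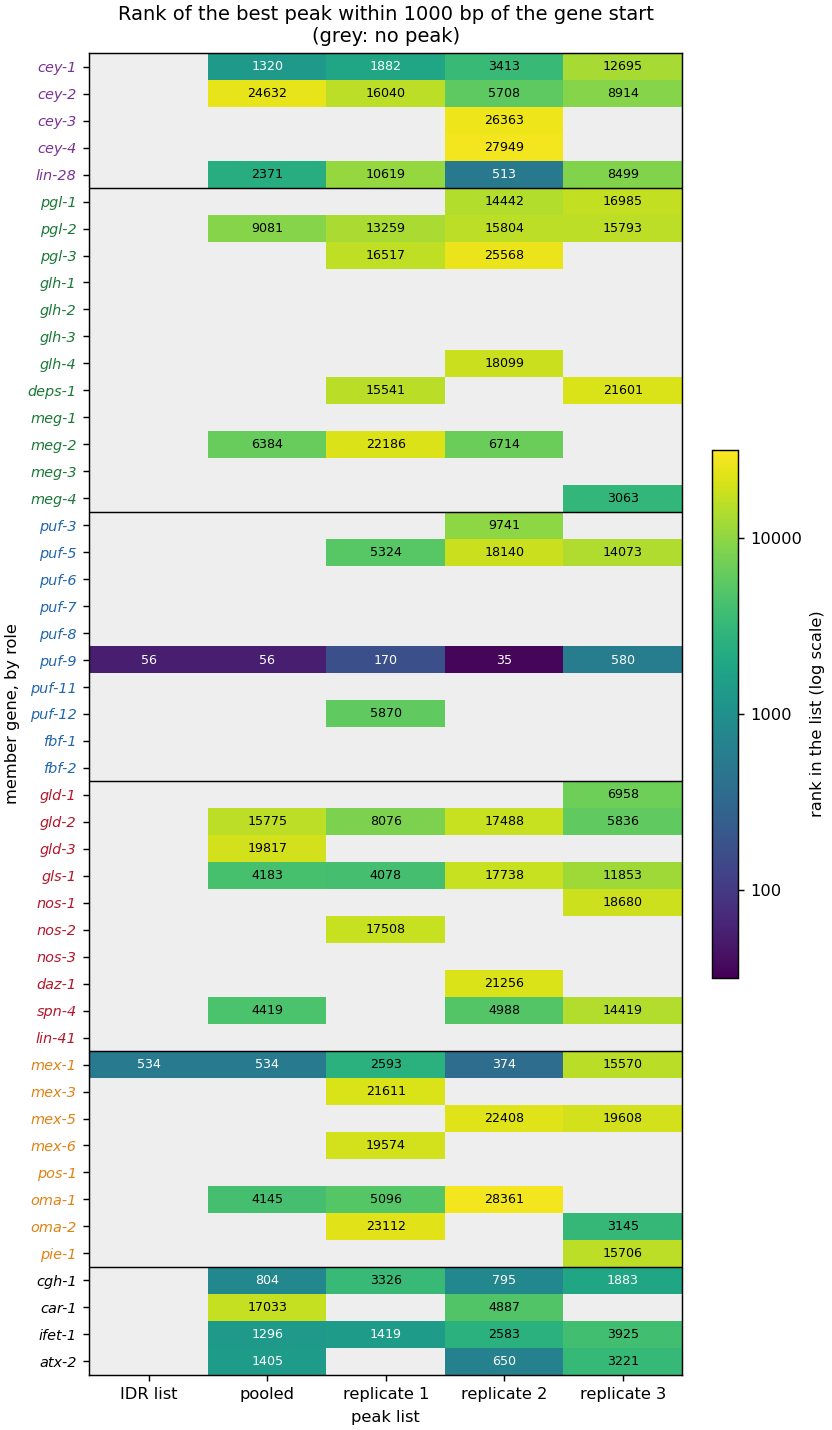
Each cell gives the rank of the best peak within 1000 bp of the start, with members down the page by role (label colour and lines) and the 5 lists across; darker is a higher place and grey is no peak. puf-9 is dark in all 5 columns, the mRNP repressors at the foot are filled in the pooled column, and most germ granule and PUF rows are grey there.

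By role, all 4 general mRNP repressors had a pooled peak, as did 3 of 5 Y-box and cold shock genes (60%), 4 of 10 GLD, Nanos and partner genes (40%), 2 of 8 maternal zinc finger and KH genes (25%), 2 of 12 germ granule genes (16.7%) and 1 of 10 PUF genes (10%). The share of all coding genes was 45%, near that of the Y-box and the GLD and Nanos genes. With so few genes in each role, and genes not being replicates, this is a description only. No peak was shared between members: the 16 best pooled peaks were 16 different peaks.

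Among the Y-box and cold shock genes, cey-1 had the highest signal in the pooled list and in replicate 1, and lin-28 in replicates 2 and 3. cey-1, a Y-box gene also used in somatic tissues, lies on chromosome II at 11039348 to 11041206. Its best peak had a pooled signal of 26.7 (rank 1320) with the summit at -955 bp, negative distances being upstream of the start. The replicates had signals of 11.5, 9.42 and 2.99 and ranks of 1882, 3413 and 12695, with best summits at -954, -828 and -415 bp, so replicates 1 and 2 lay close to the pooled summit and replicate 3 did not. The nearest annotated start to the pooled summit was that of the noncoding RNA gene F33A8.11, on the same strand, 919 bp away.

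cey-2 encodes the germline Y-box protein that carried the tag, and lies on chromosome I at 5619569 to 5620669. Its own pooled peak was weak. The signal was 7.78, close to the lowest of the list (7.62), at rank 24632, with the summit at -45 bp. The best peaks of the replicates had signals of 5.6, 7.65 and 3.61 and ranks of 16040, 5708 and 8914, at -334, -786 and -512 bp, which are 3 different positions. Lower peaks lay closer together, with that of replicate 2 at -53 bp (rank 11900) beside the pooled summit and that of replicate 3 at -310 bp (rank 19402) beside the best of replicate 1. The pooled summit was at -973 bp from the start of xrep-4, on the opposite strand. The tagged transgene carries a further copy of the gene, and reads from it cannot be told apart from those of the native gene in these lists.

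cey-3 and cey-4, the remaining Y-box genes, had no pooled peak. Each had 1 peak, in replicate 2, inside the gene. That of cey-3 had a signal of 3.29 (rank 26363) at 497 bp, and that of cey-4 a signal of 3.13 (rank 27949) at 593 bp. Both were near the lowest signal of that list, 2.93.

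lin-28 encodes a cold shock and zinc knuckle protein known for blocking the maturation of the let-7 microRNA. It lies on chromosome I at 8407630 to 8410804. Its best pooled peak had a signal of 21.2 (rank 2371) at -309 bp. The best peaks of the replicates had signals of 6.73 at -578 bp (rank 10619), 19.9 at 960 bp (rank 513) and 3.7 at -312 bp (rank 8499), and so lay at different places. Replicate 2 also had a peak of rank 970 at -340 bp, beside the pooled summit and that of replicate 3. A lower pooled peak, of rank 5491 at -580 bp, lay beside the summits of replicate 1 and of a peak of replicate 2 at -542 bp (rank 4390).

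The germ granule genes had few peaks, none among the 5000 highest of the pooled list. PGL-1 and PGL-3 are scaffold proteins of the granule, and the 4 GLH proteins are helicases of the Vasa family. pgl-1 had peaks in replicates 2 and 3 only (ranks 14442 and 16985), and pgl-3 in replicates 1 and 2 only (16517 and 25568). pgl-2 had a pooled peak of rank 9081 (signal 12.4) at 325 bp, in an intron of the gene. Its best peaks in the replicates ranked 13259, 15804 and 15793, at 240, -978 and 329 bp, so that of replicate 2 lay elsewhere. glh-1, glh-2 and glh-3 had no peak in any list, and glh-4 had 1, of rank 18099 in replicate 2. deps-1, needed for normal P granule assembly, had a peak near the middle of the list of replicate 1 (rank 15541) and one at the end of that of replicate 3 (rank 21601).

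The meg genes, which encode disordered proteins of embryonic granules, were as uneven. meg-2 had a pooled peak of rank 6384 (signal 14.2) at -267 bp, with ranks of 22186 and 6714 in replicates 1 and 2 and none in replicate 3. meg-4 had its only peaks in replicate 3, the better one of rank 3063 (signal 5.59) at 168 bp. meg-1, the neighbour of meg-2 on the X chromosome, and meg-3 had none in any list.

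Among the PUF genes, which encode proteins that bind 3′ ends of messenger RNA, puf-9 stood apart. puf-9 is known for a role in somatic tissues of the larva, in the repression of hbl-1. It lies on chromosome X at 5841592 to 5845987, and its peak spanned 5841057 to 5841446 with a signal of 79.6, rank 56 of the IDR and the pooled list. The replicates ranked it 170, 35 and 580, with signals of 21.7, 49.8 and 9.72 on their own scales. Their summits lay at -291, -323 and -412 bp, within 121 bp of each other, and the pooled one at -340 bp. By its pooled signal puf-9 came in at place 26 of all coding genes, mitochondrial ones included, the highest of the 49. The summit also lay in exons of the noncoding RNA genes W06B11.9 and W06B11.7, which run on opposite strands, at 67 and 98 bp from their starts, nearer than that of puf-9.

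No other PUF gene had a pooled peak. fbf-1 and fbf-2, which keep germline stem cells from differentiating, had no peak in any list, and neither had puf-6, puf-7, puf-8 or puf-11. puf-5, a regulator in oocytes, had a peak in all 3 replicates and none in the pooled list, at ranks of 5324, 18140 and 14073 and at -472, -207 and -117 bp. puf-3 had only a peak of rank 9741 in replicate 2, and puf-12 one of rank 5870 in replicate 1.

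Of the GLD, Nanos and partner genes, gls-1 and spn-4 were among the 5000 highest pooled peaks. gls-1, whose product binds GLD-3, had the best, with a pooled signal of 16.8 (rank 4183) at 248 bp, in a coding exon. Its best peaks in the replicates ranked 4078, 17738 and 11853, at 222, 342 and -222 bp, so that of replicate 3 lay elsewhere, upstream of the start. spn-4, a maternal RNA-binding protein gene, had a pooled peak of rank 4419 at -512 bp and peaks in replicates 2 and 3 (ranks 4988 and 14419). That summit was at -36 bp from the start of spe-39, on the opposite strand. gld-2, the gene of a cytoplasmic poly(A) polymerase, had a pooled rank of 15775 at -720 bp and replicate ranks of 8076, 17488 and 5836. The replicate summits lay at -780, 344 and -228 bp, so only that of replicate 1 was near the pooled one. The pooled summit lay in a coding exon of the gene in front of gld-2, ZC308.4. gld-3, its KH-domain partner, had a pooled peak of rank 19817 alone, nearer to the start of T07F8.4 (-183 bp) than to its own (-428 bp).

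The others of this role had peaks in at most 1 list. gld-1, the STAR-family repressor of the meiotic germline, had a peak of rank 6958 in replicate 3, nos-1 one of rank 18680 in replicate 3, nos-2 one of rank 17508 in replicate 1 and daz-1 one of rank 21256 in replicate 2. The Nanos gene nos-3 and lin-41, a TRIM-NHL gene of oocyte growth and larval timing, had none.

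Among the maternal zinc finger and KH genes, mex-1 was the second member with an IDR peak. mex-1 encodes a CCCH protein that helps to keep cell fates apart in the early embryo, and lies on chromosome II at 11968637 to 11972330. The peak spanned 11967508 to 11967897 with a signal of 37.6 (rank 534), near the end of the IDR list. The replicates had signals of 10.6, 22 and 2.61 and ranked it 2593, 374 and 15570, high in replicate 2 and low in replicate 3. The summits nonetheless lay within 79 bp of each other, at -854, -933 and -896 bp. The pooled summit was at -934 bp from the start of mex-1, -772 bp from that of rab-7, a late endosome GTPase gene, and -159 bp from that of W03C9.5, the last 2 genes lying on the opposite strand. mex-1 was the member just inside the window. The next member by distance, oma-2, was well outside, with its nearest IDR summit at -2886 bp (signal 67.8, rank 83).

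oma-1, which with oma-2 is needed for oocyte maturation, had a pooled peak of signal 16.9 (rank 4145). Replicates 1 and 2 placed it at the same site, at -927 and -926 bp beside the pooled -921 bp, with signals of 8.64 and 3.09 and ranks of 5096 and 28361, and replicate 3 had none. The pooled summit lay in a coding exon of the upstream gene C09G9.5. oma-2 had peaks in replicates 1 and 3 (ranks 23112 and 3145). The paralogues mex-5 and mex-6, which set the polarity of the zygote, had no pooled peak: mex-5 ranked 22408 and 19608 in replicates 2 and 3, and mex-6 19574 in replicate 1. mex-3, a KH-domain repressor, had a peak of rank 21611 in replicate 1, and pie-1, which holds back transcription in the embryonic germline, 1 of rank 15706 in replicate 3. pos-1, a CCCH gene of early embryonic fates, had none.

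The 4 general mRNP repressors were the only role in which every gene had a pooled peak, and 2 of them, cgh-1 and ifet-1, had a peak in all 3 replicates. cgh-1, the worm DDX6 helicase, lies on chromosome III at 7495320 to 7497832. Its pooled peak had a signal of 32.2 (rank 804), just below the end of the IDR list, at -689 bp. The best peaks of the replicates had signals of 9.83, 17 and 6.57 and ranks of 3326, 795 and 1883, at -297, -571 and -583 bp. Replicates 2 and 3 thus placed it at 1 site, and replicate 1 had a weaker peak near there, of rank 15918 at -530 bp.

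ifet-1, the worm eIF4E-transporter gene, lies on chromosome III at 4471411 to 4475150. Its pooled peak had a signal of 27 (rank 1296) at -462 bp. The replicates had signals of 12.4, 10.6 and 5.13 and ranks of 1419, 2583 and 3925, at -618, -419 and -456 bp, within 199 bp of each other. This summit was nearer to the start of rps-1, a ribosomal protein gene on the opposite strand (-306 bp), and lay in the noncoding RNA genes F56F3.10 and F56F3.11. The peak cannot be given to 1 of these genes from its position.

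atx-2, the worm ataxin-2 gene, lies on chromosome III at 10461389 to 10468051. It had a pooled signal of 26.1 (rank 1405) at -41 bp, the closest to its own start of the 6 highest members. Replicates 2 and 3 had signals of 18.5 and 5.5 and ranks of 650 and 3221, at -64 and 64 bp, and replicate 1 had no summit within 1000 bp. car-1, an LSM14-type partner of CGH-1, had a weak pooled peak of rank 17033 (signal 9.43) at -400 bp, with a peak of rank 4887 at -412 bp in replicate 2 and none in the other two replicates.

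**Figure D3:**
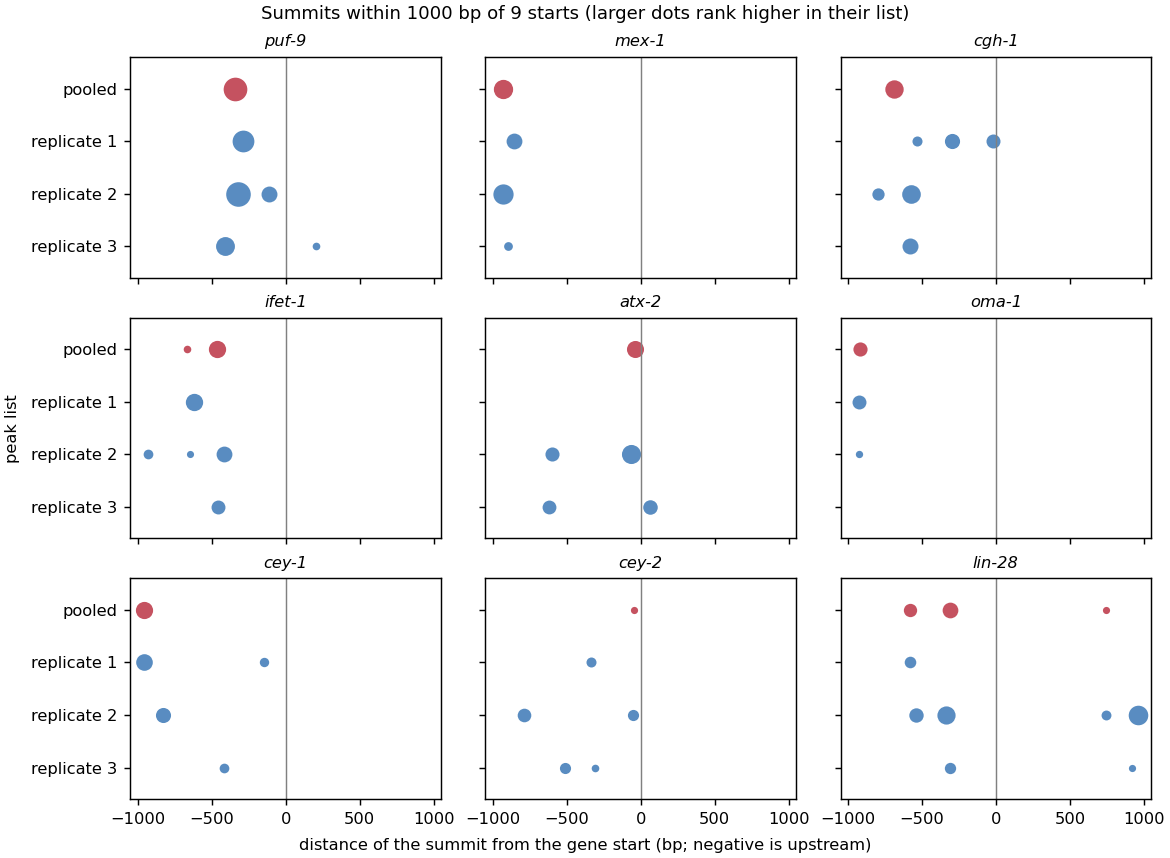
Dots mark every summit within 1000 bp of 9 starts, by distance from the start in bp (horizontal axis) and by list (vertical axis), with larger dots for higher ranks in their list. The summits of puf-9 and mex-1 line up in all 3 replicates, while the largest dots of cey-2 and lin-28 lie at different places in the 3 replicates.

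The lists did not place their peaks evenly around these starts. Of the 16 best pooled summits 14 lay upstream of the start (87.5%), against 63.1% for coding genes with a pooled peak. Their median distance was 414 bp on either side, against 391 bp. Close to the start members were rarely reached: 3 of 49 had any pooled summit within 250 bp (6.12%), against 18.8% of coding genes. Those 3 were cey-2, atx-2 and gls-1.

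**Figure D4:**
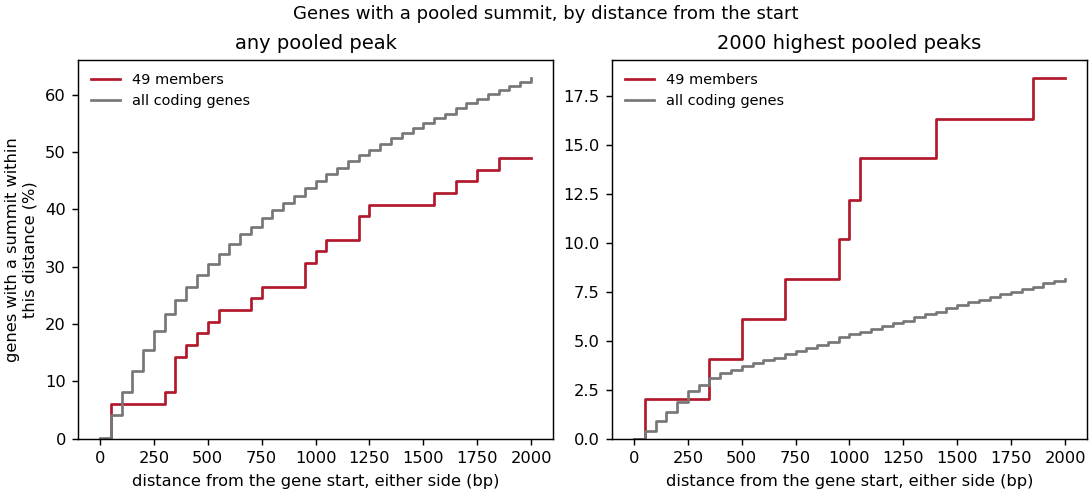
Lines give the percent of genes (vertical axis) with a pooled summit within a distance of the start in bp (horizontal axis), for members and all coding genes, with any pooled peak at left and the 2000 highest at right. Members run below coding genes at left from 100 bp on (32.7% and 45% at 1000 bp) and above them at right from 350 bp on (12.2% and 5.32% at 1000 bp).

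Several peaks counted for members had another coding gene closer by. In 12 of 16 cases the member's own start was the nearest coding start (75%, against 85.7% of coding genes with a pooled peak), and in 7 it was the only one within 1000 bp (43.8% against 72%). The exceptions to the first were mex-1, ifet-1, gld-3 and spn-4. The sequence in front of the members was also shorter than usual, with a median of 603 bp to the next coding gene, against 936 bp for all coding genes. Members with less than 500 bp had a pooled peak in 4 of 21 cases (19%, against 46.4% of coding genes with such a gap), those with 500 to 2000 bp in 11 of 19 (57.9% against 45.2%) and those with more in 1 of 9 (11.1% against 43.1%). Its part in the counts was not tested.

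**Figure D5:**
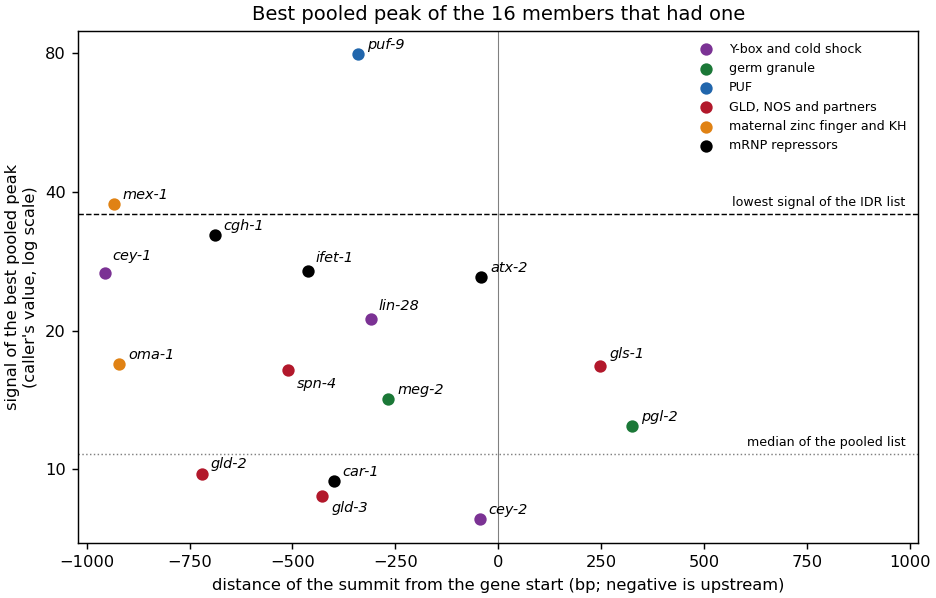
Points give the caller's signal of the best pooled peak (vertical axis, log scale) against the distance of its summit from the start in bp (horizontal axis) for the 16 members with one, coloured by role. puf-9 and mex-1 lie above the dashed end of the IDR list at 35.9, and only gls-1 and pgl-2 lie downstream of their start.

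Summits were also counted over whole genes and in wider windows, both of which include the starts. None of the 49 had an IDR summit inside the gene, against 0.891% of coding genes, and 15 had a pooled summit there (30.6% against 38.5%). gld-2, which spans 16447 bp, had 4 of those. The nearest IDR summit lay within 20000 bp of the start for 14 members (28.6%), against 18.8% of coding genes, and within 10000 bp for 9 (18.4% against 10.2%). The median distance to it was 63039 bp for members, against 71372 bp for coding genes. After puf-9, mex-1 and oma-2 the nearest were those of glh-4 (-3471 bp, rank 219), nos-2 (-6225 bp, rank 193) and puf-5 (-6557 bp, rank 551).

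A summit in none of the 5 lists lay within 1000 bp of 14 members (28.6%), against 21.1% of coding genes. They were glh-1, glh-2, glh-3, meg-1, meg-3, puf-6, puf-7, puf-8, puf-11, fbf-1, fbf-2, nos-3, lin-41 and pos-1. A further 19 had a peak in 1 or more replicates and none in the pooled list (38.8% against 33.9%). By chromosome, a pooled peak was found at 4 of 6 members on III (51.1% of its coding genes), 5 of 14 on I (45.6%), 3 of 14 on II (42.5%), 1 of 6 on IV (45.9%), 1 of 4 on V (42%) and 2 of 5 on X (45.6%).

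The sequence words of the strongest peaks were found at some members only. GAGAGA, a GA repeat, occurred on either strand within 100 bp of the pooled summit at 6 of 16 members (37.5%): puf-9, cgh-1, ifet-1, atx-2, cey-1 and oma-1. It occurred in 15% of nuclear pooled peaks, 42.8% of nuclear IDR peaks and 14% of windows of the same length around the starts of nuclear coding genes. CACGTG, an E-box that reads the same on both strands, occurred at mex-1 and cgh-1 (12.5%), against 4.3% of nuclear pooled peaks, 19.8% of IDR peaks and 4.4% of starts. TGATAA, the core of GATA factor sites, occurred at gls-1, spn-4 and oma-1 (18.8%), against 24.1%, 41.3% and 20.6%.

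In the sequences printed above each window held GAGAGA or CACGTG, and that of cgh-1 held both. The windows are centred on pooled summits. Those of puf-9 and mex-1 also held the best summit of every replicate. That of ifet-1 held those of replicates 2 and 3, that of cey-1 only that of replicate 1, and that of cgh-1 none. The window of atx-2 runs into the gene and is not printed. The GC content was 54.2% at puf-9 and atx-2, 50.2% at mex-1, 48.8% at cgh-1, 41.8% at ifet-1 and 36.8% at cey-1. The median was 33.8% for nuclear pooled peaks and 35.8% for windows at the starts of nuclear coding genes, so cey-1 was close to the latter. Among the weakest peaks the GC content was 41.8% at car-1, 35.3% at gld-2, 34.8% at cey-2 and 32.8% at gld-3. Of these only gld-3 was below 33.8%. IDR peaks had a median of 39.8%, and the words were taken up because they were frequent in those peaks, so these matches are a description of the windows and not evidence of a binding site.

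Other genes of germline RNA control and mRNA turnover gave a similar picture in the IDR list and a different one in the pooled list. Of 89 such genes matched by name, 50 had a pooled peak (56.2%, against 45% of coding genes). A peak in all 3 replicates was present at 11 (12.4% against 16.2%), and an IDR peak at 4 (4.49% against 1.51%). The 4 were larp-1, a La-related translational regulator (signal 48.1, rank 262), etr-1, a CELF-type RNA-binding protein gene (45.3, rank 310), ntl-2, a subunit gene of the CCR4-NOT deadenylase (38.3, rank 502), and pab-2, a gene of a poly(A)-binding protein (38, rank 516). Their summits lay at -594, -13, -251 and -213 bp. All 4 ranked below puf-9, and 1 of them, etr-1, was within the top 1000 of all 3 replicates (ranks 162, 571 and 806). larp-1 and ntl-2 had no summit within 1000 bp in replicate 3, and ntl-2 ranked only 11028 in replicate 1. The best summits of pab-2 in the replicates lay at -224, -86 and 925 bp, so that of replicate 3 lay elsewhere. The median pooled rank of the 50 genes with a pooled peak was 10192, near the 10302 of all coding genes with one.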

How the data were processed

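Peak lists of ChIP-seq of CEY-2-GFP in whole L4 worms were used in build ce11. Per the README text deposited with the libraries, each pooled or replicate list was derived from the authors' alignments with 1 control file, which was not analysed here, and the IDR list from those 4 lists. The caller and aligner were not given in the sources used here. The signal value of each peak is the deposited caller's value, comparable within 1 list only. The other deposited column used, the summit offset in bp, was added to the peak start. The 5 ce10 lists were not used, as no annotation of that build was given.

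Gene starts and bodies came from Ensembl release 115 (WBcel235, the same assembly as ce11), and sequences from the RefSeq WBcel235 genome; all peaks fit its chromosome lengths. Peaks were ranked by signal. Counting used Python 3.11.15, pandas 2.3.3 and numpy 2.4.6, and was checked on planted summits. The upstream gap was measured to the nearest coding gene body.

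The members and lists were chosen with earlier results of these data known. Full values were given for members with an IDR peak, the 8 best by pooled rank, the 3 best of each replicate and the Y-box and cold shock genes. A second list of 92 genes was matched by symbol, 89 of them found. Alternatives varied the window, the start, the peaks counted and the replicates. No p-value was computed, because the lists hold 1 group with no read counts.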

Additional observations from a re-analysis of the deposited data

How the results depend on the processing

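The counts depended on the window and on how many peaks were counted. With 250 bp the IDR count was 0 (0.635% of coding genes) and the pooled count 3 (18.8%). The count in all 3 replicates was 0 (2.64%). In the pooled count members then stood below coding genes (6.12% against 18.8%), a share that rests on 3 members and was not tested. At shares as low as the others, a count of 0 among so few members cannot separate them from coding genes. With 500 bp the IDR, pooled and all-3-replicates counts were 1, 10 and 5 (0.996%, 30.4% and 7.07% of coding genes). With 2000 bp the count in all 3 replicates was 19 (35.6% of coding genes). At or above the median signal of the IDR list 1 member had a peak (2.04%, against 0.716% of coding genes). Among the top 611 peaks of replicates 1, 2 and 3 it was 1, 3 and 1 (1.44%, 1.48% and 1.66% of coding genes), the 3 being puf-9, mex-1 and lin-28. The pooled count was 10 among the 5000 and 6 among the 2000 highest peaks. The count in all 3 replicates was 3 with the top 10000 and also with the top 5000 peaks of each (6.12% of members, against 4.88% and 2.39% of coding genes). It was 3 where the best summits of the 3 replicates had to lie within 200 bp (6.12% against 3.49%). When any summit of each replicate in the window could be used, and not only the best, it was 5 (10.2% of members, against 5.5% of coding genes): puf-9, mex-1, cgh-1, ifet-1 and pgl-2. It ran from 13 to 15 when 1 replicate was left out and only the others had to hold a peak: 30.6% against 23.6% of coding genes without replicate 1, 26.5% against 23.3% without replicate 2 and 28.6% against 29.1% without replicate 3. The median pooled rank stayed between 4139 and 5284 in all alternatives run. Other transcript starts and interval overlap moved no count by over 1.5 times. No paired analysis was possible because all libraries form 1 group. Depth is unknown, so the absence of a peak is no measure of absent recovery.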
